A study of Macaca mulatta with 12 samples.

Results

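CD40, CD80, CD86, CD83, ICAM1, ICOSLG and CD58 are surface molecules with which macrophages and dendritic cells hold and costimulate T cells. These 7 genes were given by name, with no threshold on a measured value, and were looked up among the 32386 genes of the deposited count table. All 7 were found, ICAM1 under its symbol and the other 6 under Ensembl identifiers that a name table pairs with the symbols. All 7 passed the filter on low counts, which kept 11826 genes. The RNA came from rhesus macaque (Macaca mulatta) blood macrophages, sorted as positive for CD14 and CD163 and negative for CD16. The animals had been given back their own mobilized CD34+ cells after CRISPR/Cas9 treatment, and the series title places the macrophages in TET2-mutant hematopoiesis. All 4 groups therefore come after editing and transplant, and an unedited group was not analysed here. The 4 groups were early unstimulated (Early CTL), early stimulated (Early ACT), late unstimulated (Late CTL) and late stimulated (Late ACT), with 3 libraries each. Early is 4.5 months and late is 19 months after transplant. Stimulation was 8 h with LPS, a bacterial cell wall product, at 100 ng/ml and interferon-gamma, a T cell and NK cell cytokine, at 20 ng/ml, in wells of 250000 cells. The protocol names both agents, while the treatment field names LPS alone. The labels give neither the edited share of cells nor the animals behind each library, so p-values reflect only how far libraries vary within their groups, possibly for technical reasons. That spread was estimated over all 12 libraries together, so each p-value draws on all 4 groups.

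CD80 and CD86 are B7 molecules that bind CD28, which costimulates T cells, and CTLA4, which restrains them. ICOSLG binds ICOS, a relative of CD28. CD40 receives CD40L from helper T cells and signals through TRAF proteins and NF-kB, while CD83 is a maturation marker of dendritic cells known to stabilize MHC class II and CD86 at the surface. ICAM1 and CD58 are adhesion ligands, ICAM1 for the integrin LFA-1 and CD58 for CD2. In macrophages, inflammatory stimuli such as LPS and interferon-gamma are known to raise several of these molecules.

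Library totals ran from 3910680 to 12972505 counts. CD14 lay between 1374 and 3214 CPM (counts scaled to a common library total, times TMM factors) and CD163 between 506 and 1521 CPM, while the CD16 gene FCGR3 lay between 31.2 and 48.8 CPM. TET2 lay between 244 and 440.3 CPM, and counts per gene do not show edits. The library Early ACT 1 lay far from the other 2 of its group, at -61.49 on the second principal component against 1.5 and 1.80 for Early ACT 2 and 3. Because the spread is shared, this library also enters the p-values of comparisons that leave out its group. TNF, an LPS-induced cytokine gene, was at 391 ± 11.8 CPM in Early CTL and 1466 ± 328 in Early ACT (SD, n = 3), a log2 fold change of 1.91 ± 0.13 (SE, edgeR adjusted p = 7.9e-11). At 19 months TNF was at 1170 ± 127 CPM without and 1382 ± 57.7 CPM with stimulation (SD, n = 3), which did not pass the test (edgeR adjusted p = 0.998).

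CD80 was lower at 19 months than at 4.5 months, with and without stimulation, and it was the only one of the 7 genes that passed the test in any comparison. None of the 7 passed for stimulation at either time. In edgeR's quasi-likelihood test at an adjusted p under 0.05, stimulation at 4.5 months called 0 of the 7 genes against 7.23% of all genes tested, and at 19 months 0 of 7 against 0%. At an unadjusted p under 0.05 the counts for stimulation were again 0 of 7 at both times, against 2530 and 527 of all genes. DESeq2 also called 0 of 7 at both times, against 10.7% and 0.131% of all genes. Late against early called 1 of 7 in unstimulated cells, where 40.7% of all genes passed. It also called 1 of 7 with stimulation, where 38.8% passed. The difference between the late and the early stimulation response called 0 of 7, against 1.41% of all genes. At an unadjusted p under 0.05 it held 1 of 7, CD83, against 1280 of all genes, and DESeq2 called 1 of 7, against 3.78% of all genes. The median log2 fold change of the 7 genes on stimulation was 0.19 at 4.5 months and 0.02 at 19 months. Late against early it was 0.08 in unstimulated and -0.06 in stimulated cells. The corresponding medians over all genes tested lay between 0.00 and 0.05.

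**Figure D1:**
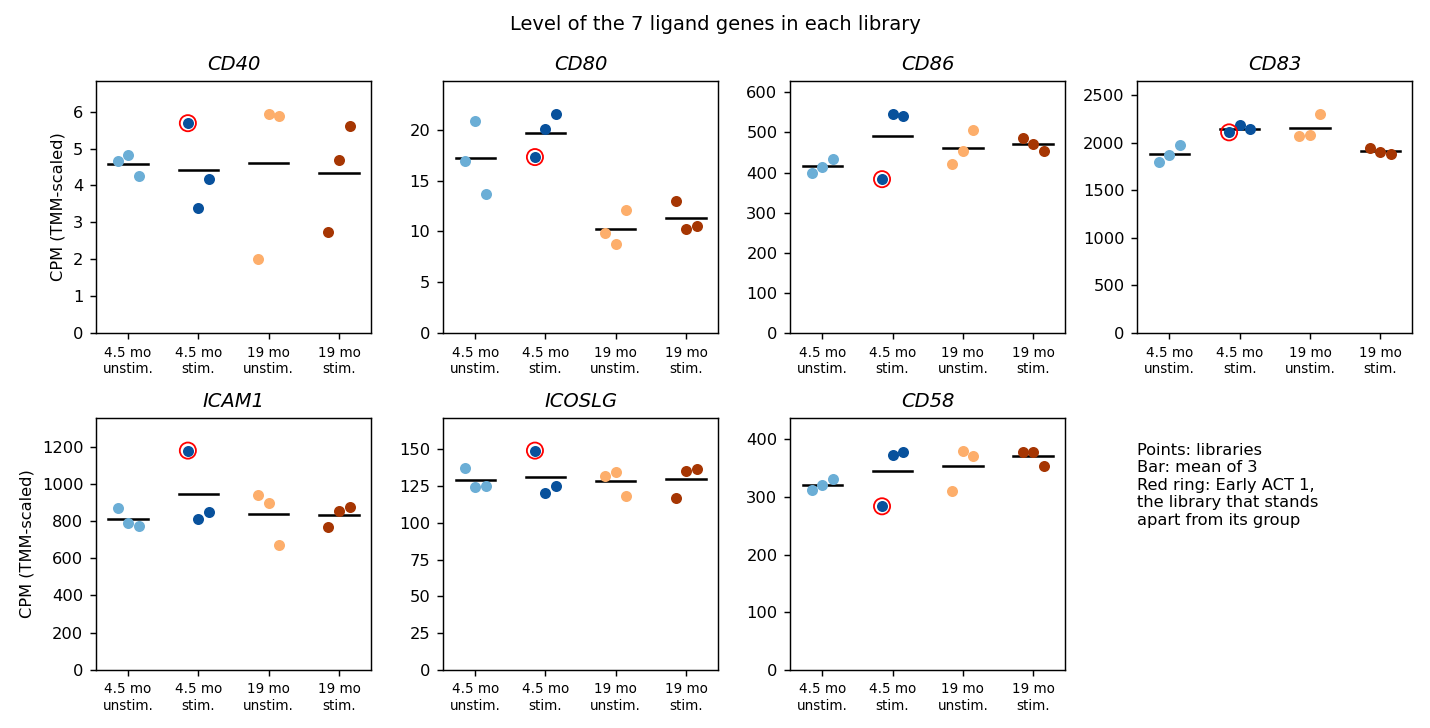
Level of each of the 7 genes in each library, in TMM-scaled CPM on axes that start at 0, with 4 groups of 3 libraries per panel and a bar at the group mean. CD80 lies between 13.7 and 21.6 CPM in the early and between 8.71 and 13 CPM in the late libraries, CD83 spans 1.28-fold and ICOSLG 1.27-fold over all 12 libraries, and the ringed library Early ACT 1 is low for CD86 and CD58 and high for ICAM1.

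CD80 separated the times in all 12 libraries. The Early CTL libraries held 16.9, 20.9 and 13.7 CPM, the Early ACT libraries 17.3, 20.1 and 21.6, the Late CTL libraries 9.80, 8.71 and 12.1, and the Late ACT libraries 13, 10.3 and 10.6. Every early library lay above every late library. Late and early groups also did not overlap for 52.8% of all genes tested in unstimulated and 50.4% in stimulated cells. The share of genes that separate the times over all 12 libraries at once was not computed. Unstimulated cells averaged 17.2 ± 3.60 CPM early and 10.2 ± 1.72 CPM late (SD, n = 3). The log2 fold change was -0.75 ± 0.21 (SE, edgeR adjusted p = 0.0055), which is 1.68-fold lower with a 95% interval of 1.25 to 2.25. Stimulated cells averaged 19.7 ± 2.16 CPM early and 11.3 ± 1.5 CPM late (SD, n = 3). That log2 fold change was -0.81 ± 0.20 (SE, edgeR adjusted p = 0.0023), or 1.76-fold lower with a 95% interval of 1.32 to 2.33. The late libraries as a whole also differed from the early ones, with a count in 17470 to 20760 genes against 13883 to 16132. Of the 637 genes with a mean under 1 CPM that passed the filter on low counts, 65.1% were higher late in unstimulated and 60.1% in stimulated cells. Such genes pass only with enough counts in some libraries, so these shares do not describe all low genes. The part of these differences in the CD80 result was not tested. In bulk RNA, fewer cells with CD80 and less CD80 RNA per cell cannot be told apart.

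The authors' deposited table places CD80 (ENSMMUG00000016367) at chr2:40696509-40725738 and lists it as lower late in both states. Its log2 fold changes, in the authors' deposited table, are -0.73 ± 0.27 in unstimulated cells (SE, adjusted p = 0.0239) and -0.81 ± 0.24 in stimulated cells (SE, adjusted p = 0.00761). In the edgeR fit, the unstimulated comparison missed the threshold without Early CTL 2, the early unstimulated library with the most CD80 (log2 fold change -0.58, edgeR adjusted p = 0.0508). The stimulated comparison passed under all 20 alternatives tried, with log2 fold changes from -0.94 to -0.66. Raw CD80 counts ran from 39 to 253 per library, so 95% Poisson intervals, which cover counting error only, are wide in the shallow libraries. Among genes with a mean of 10 to 20 CPM, as CD80 has, 26.8% of 1598 genes were lower late without stimulation, and 23.2% were lower late with it.

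The ratio of CD80 to CD86 counts within a library does not depend on any scaling between libraries. The log2 ratio averaged -4.62 ± 0.34 in Early CTL, -4.63 ± 0.15 in Early ACT, -5.51 ± 0.18 in Late CTL and -5.39 ± 0.15 in Late ACT (SD, n = 3). It ran from -4.99 to -4.31 in early and from -5.71 to -5.22 in late libraries, which do not overlap. The pair of B7 ligands thus changed unequally with time, as a description of these libraries. Stimulation gave CD80 a log2 fold change of 0.21 ± 0.19 at 4.5 months (SE, edgeR adjusted p = 0.577) and 0.14 ± 0.21 at 19 months (SE, edgeR adjusted p = 0.998). The groups overlapped at both times, and the 95% intervals ran from -0.18 to 0.60 and from -0.30 to 0.58. The late response minus the early one was -0.07 ± 0.29 (SE, edgeR adjusted p = 0.964). By level, the order was Early ACT, Early CTL, Late ACT and Late CTL, and only the step between the early and late groups exceeded the spread.

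**Figure D2:**
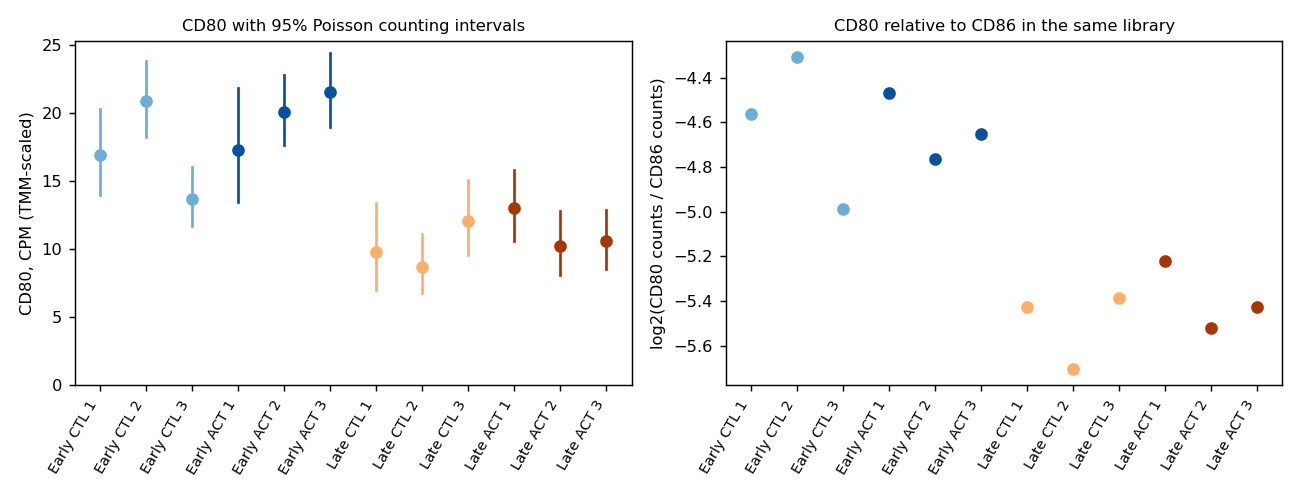
Left, CD80 in each of the 12 libraries in TMM-scaled CPM with 95% Poisson counting intervals. Right, the log2 ratio of CD80 to CD86 counts in the same library, where early libraries lie between -4.99 and -4.31 and late libraries between -5.71 and -5.22.

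CD86, the other ligand of CD28 and CTLA4, did not pass in any comparison over all 12 libraries, and its early response to stimulation depended on 1 library. Early CTL libraries held 400, 414 and 435 CPM, and Early ACT libraries 384, 546 and 542. The lowest of the 12 values, 384 CPM, was Early ACT 1, and the other two Early ACT libraries were the highest. Late CTL libraries held 421, 455 and 505 CPM and Late ACT libraries 485, 472 and 454, which overlap. The log2 fold change on early stimulation was 0.24 ± 0.12 (SE, edgeR adjusted p = 0.267, 95% interval -0.02 to 0.49). Without Early ACT 1 it was 0.39 ± 0.08 (SE) and passed (edgeR adjusted p = 0.000247). Late stimulation gave 0.03 ± 0.12 (SE, edgeR adjusted p = 0.998, 95% interval -0.23 to 0.29). The difference of the responses was -0.21 ± 0.18 (SE, edgeR adjusted p = 0.725), and without Early ACT 1 it was -0.36 ± 0.11 and passed (edgeR adjusted p = 0.0381). Late against early, CD86 changed by 0.15 ± 0.12 in unstimulated cells (SE, edgeR adjusted p = 0.353) and by -0.06 ± 0.12 in stimulated cells (SE, edgeR adjusted p = 0.741). The stimulated value was -0.23 ± 0.08 without Early ACT 1 and passed (edgeR adjusted p = 0.0201).

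ICOSLG, the ligand of ICOS, had the narrowest range of the 7 genes, 1.27-fold between the lowest and the highest library. Early CTL libraries held 137, 124 and 125 CPM, Early ACT libraries 149, 120 and 125, Late CTL libraries 132, 134 and 118, and Late ACT libraries 117, 135 and 137. All 4 groups overlapped, and their means lay between 128 and 131 CPM. The log2 fold changes on stimulation were 0.02 ± 0.12 early and 0.02 ± 0.12 late (SE, edgeR adjusted p = 0.947 and 0.998). The 95% intervals ran from -0.22 to 0.27 and from -0.23 to 0.26. Late against early gave 0.00 ± 0.12 in unstimulated and -0.01 ± 0.12 in stimulated cells (SE, edgeR adjusted p = 0.98 and 0.952). The difference of the responses was -0.01 ± 0.17 (SE, edgeR adjusted p = 0.996). Early ACT 1 was the highest of the 12, and without it the early stimulation value was -0.07 ± 0.09 (SE, edgeR adjusted p = 0.716).

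CD40, the receptor through which helper T cells activate macrophages, was counted only 8 to 52 times per library, and the depth did not allow a fine comparison. Early CTL libraries held 4.67, 4.83 and 4.26 CPM, Early ACT libraries 5.69, 3.39 and 4.18, Late CTL libraries 2.01, 5.94 and 5.89, and Late ACT libraries 2.73, 4.68 and 5.6. All groups overlapped, and the lowest and the highest of the 12 values were both in Late CTL. The 95% Poisson interval of the lowest, from 8 counts, was 0.868 to 3.96 CPM, and that of the highest, from 45 counts, was 4.33 to 7.95 CPM. Stimulation gave log2 fold changes of -0.11 ± 0.34 early and -0.15 ± 0.35 late (SE, edgeR adjusted p = 0.896 and 0.998). Their 95% intervals, -0.81 to 0.59 and -0.86 to 0.57, include rises of up to 1.5-fold and 1.49-fold. Late against early gave 0.08 ± 0.34 in unstimulated and 0.04 ± 0.34 in stimulated cells (SE, edgeR adjusted p = 0.874 and 0.933). The difference of the responses was -0.04 ± 0.49 (SE, edgeR adjusted p = 0.992).

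CD83 stood above its unstimulated group after early stimulation and below it after late stimulation, by small amounts that did not pass the test over all 12 libraries. Early CTL libraries held 1800, 1870 and 1978 CPM and Early ACT libraries 2108, 2190 and 2138. Late CTL libraries held 2067, 2085 and 2302 CPM and Late ACT libraries 1943, 1897 and 1881. In all 4 pairwise comparisons by time or by stimulation the libraries of the groups did not overlap on the TMM scale. With library totals alone, only the late stimulated and late unstimulated libraries of CD83 stayed apart, and the other 3 comparisons overlapped. Groups did not overlap for 25.7% of all genes on early stimulation, where CD83 was the 1 of the 7 genes, and for 11% on late stimulation, where it was again the 1 of 7. Late against early, CD80 and CD83 were the 2 of 7 without overlap in both states, where the share of all genes was 52.8% in unstimulated and 50.4% in stimulated cells.

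The log2 fold change of CD83 on stimulation was 0.19 ± 0.10 at 4.5 months (SE, edgeR adjusted p = 0.279, 95% interval -0.02 to 0.39). At 19 months it was -0.17 ± 0.10 (SE, edgeR adjusted p = 0.998, 95% interval -0.38 to 0.03). The difference between the responses, late minus early, was -0.36 ± 0.14 (SE, unadjusted p = 0.0166, edgeR adjusted p = 0.29). It passed with DESeq2 (adjusted p = 0.0371) and in edgeR without Early ACT 1 (-0.38 ± 0.10, adjusted p = 0.00978). Without that library the early response, 0.20 ± 0.07, also passed (edgeR adjusted p = 0.0485). Late against early, CD83 changed by 0.20 ± 0.10 in unstimulated cells (SE, edgeR adjusted p = 0.121) and by -0.17 ± 0.10 in stimulated cells (SE, edgeR adjusted p = 0.195). These 4 comparisons share groups with each other and are not separate evidence. The unstimulated value passed with DESeq2 (0.24, adjusted p = 0.0111), with upper-quartile factors in edgeR (0.32, adjusted p = 0.0148), with only the groups compared in edgeR (0.23, adjusted p = 0.0132) and without Early ACT 1 in edgeR (0.18, adjusted p = 0.0178). The stimulated value passed in edgeR without Early ACT 1 (-0.20, adjusted p = 0.0229). The authors' deposited table, which holds genes with an adjusted p under 0.05, lists CD83 (ENSMMUG00000020289, chr4:14388968-14409029) in unstimulated cells at 0.21 ± 0.07 (SE, adjusted p = 0.0143), and does not list it in stimulated cells.

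**Figure D3:**
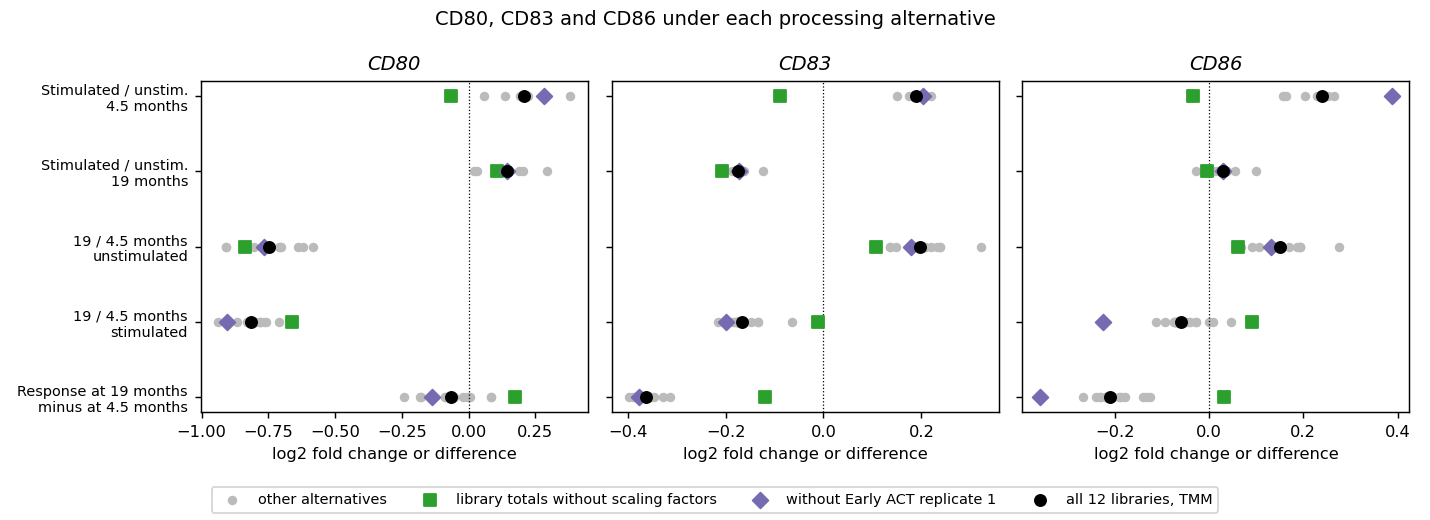
Log2 fold change, or difference of responses, of CD80, CD83 and CD86 in each of the 5 comparisons under every processing alternative, one point per alternative. The CD80 values late against early all lie below 0, from -0.94 to -0.58, while the early stimulation value of CD86 runs from -0.03 with library totals alone to 0.39 without Early ACT 1.

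ICAM1, the ligand of LFA-1, did not pass in any comparison. Early CTL libraries held 871, 791 and 772 CPM, Early ACT libraries 1180, 814 and 850, Late CTL libraries 943, 898 and 674, and Late ACT libraries 769, 854 and 876. All groups overlapped. The highest of the 12 values was Early ACT 1, and the lowest was Late CTL 3. Early stimulation gave a log2 fold change of 0.22 ± 0.14 (SE, edgeR adjusted p = 0.363, 95% interval -0.06 to 0.50), and 0.04 ± 0.10 without Early ACT 1 (SE, edgeR adjusted p = 0.876). Late stimulation gave -0.01 ± 0.14 (SE, edgeR adjusted p = 0.998, 95% interval -0.29 to 0.27). Late against early was 0.05 ± 0.14 in unstimulated and -0.18 ± 0.14 in stimulated cells (SE, edgeR adjusted p = 0.798 and 0.309). The difference of the responses was -0.23 ± 0.19 (SE, edgeR adjusted p = 0.723).

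CD58, the ligand of CD2, did not pass either, and its means ran from 322 ± 9.62 CPM in Early CTL to 370 ± 14.0 CPM in Late ACT (SD, n = 3). Early CTL libraries held 312, 321 and 331 CPM and Early ACT libraries 284, 373 and 378. Late CTL libraries held 311, 381 and 371 CPM and Late ACT libraries 379, 378 and 354. As for CD86, Early ACT 1 was the lowest of the 12 and the other two Early ACT libraries lay above every Early CTL library. Early stimulation gave a log2 fold change of 0.10 ± 0.12 (SE, edgeR adjusted p = 0.675), and 0.23 ± 0.08 without Early ACT 1 (SE, edgeR adjusted p = 0.0593). Late stimulation gave 0.06 ± 0.12 (SE, edgeR adjusted p = 0.998, 95% interval -0.18 to 0.31). Late against early was 0.15 ± 0.12 in unstimulated and 0.10 ± 0.12 in stimulated cells (SE, edgeR adjusted p = 0.354 and 0.52). The difference of the responses was -0.04 ± 0.17 (SE, edgeR adjusted p = 0.961).

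The signs of the early stimulation values depended on the scaling between libraries. With library totals and no TMM factors, the median over all genes on early stimulation moved to -0.28, and CD80, CD86, CD83, ICAM1, ICOSLG and CD58 had log2 fold changes between -0.26 and -0.03, none of them called. Of the genes called on early stimulation, 63.3% were higher with TMM and 11.6% with library totals. The late CD80 values kept their sign and passed with library totals as well, at -0.84 in unstimulated and -0.66 in stimulated cells (edgeR adjusted p = 0.00235 and 0.0104).

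**Figure D4:**
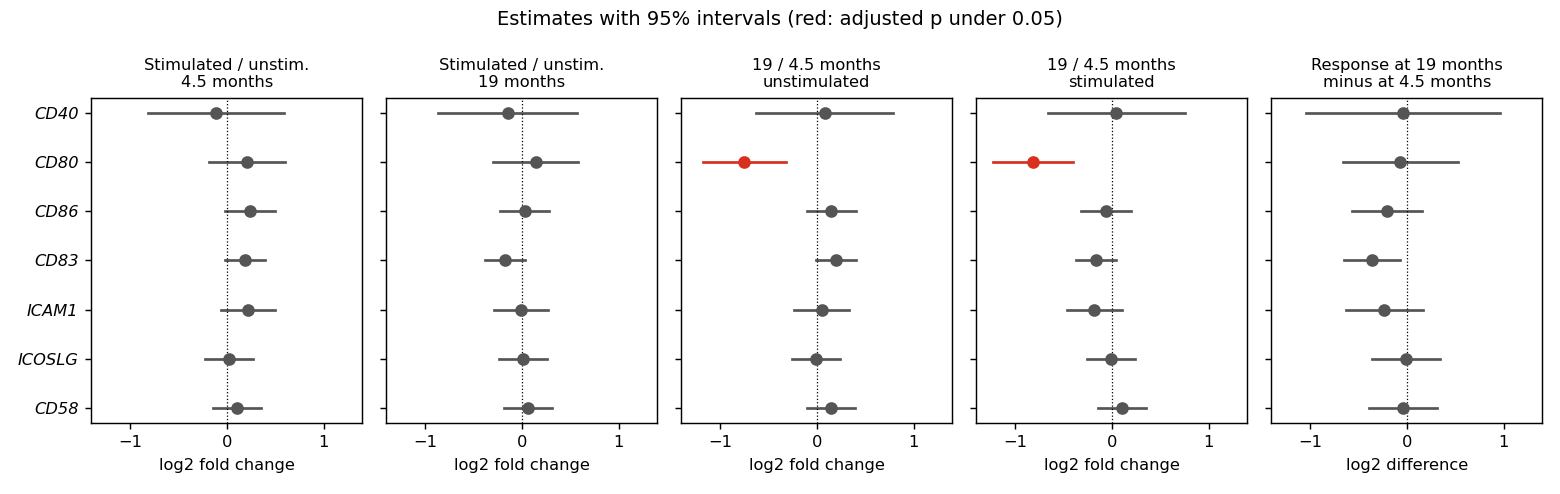
Log2 fold change of each of the 7 genes in the 4 comparisons, and the late minus the early response in the last panel, with 95% intervals from edgeR. Red marks an adjusted p under 0.05, which CD80 alone has, at -0.75 and -0.81 late against early, and the widest intervals are those of CD40.

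Of the other B7 family ligands, 3 of 5 tested passed on early stimulation, against 7.23% of all genes (4.57% higher and 2.66% lower). Early stimulation raised CD276 and NCR3LG1 and lowered VSIR. On late stimulation no gene of this or any other list passed over all 12 libraries, where 0% of all genes passed. A single gene, of the TNF superfamily list below, passed there with DESeq2, with only the groups compared and without Early ACT 1. CD276, an immune checkpoint ligand, was at 9.01 ± 1.29 CPM in Early CTL and 26.2 ± 5.36 in Early ACT (SD, n = 3). Its early response was a log2 fold change of 1.53 ± 0.19 (SE, edgeR adjusted p = 2.74e-06), and the late minus early response was -1.22 ± 0.25 (SE, edgeR adjusted p = 0.00869). At 19 months CD276 was at 24.2 ± 3.05 CPM without and 30.03 ± 3.43 CPM with stimulation (SD, n = 3). NCR3LG1, a ligand of the NK cell receptor NKp30, rose by 0.91 ± 0.21 on early stimulation (SE, edgeR adjusted p = 0.00782), a call lost without Early CTL 3 or Early ACT 3, with adjusted p up to 0.0774.

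VSIR, which encodes the checkpoint molecule VISTA, had the opposite course. It stood at 191 ± 1.44 CPM in Early CTL, 125 ± 5.39 in Early ACT, 54.3 ± 0.653 in Late CTL and 44.2 ± 3.04 in Late ACT (SD, n = 3). It fell on early stimulation by 0.62 on the log2 scale, and late against early by 1.81 in unstimulated and by 1.49 in stimulated cells (edgeR adjusted p = 0.000514, 1.04e-11 and 5.69e-10). CD274, which encodes PD-L1, fell late against early in both states, in stimulated cells by 0.69 on the log2 scale, from 69.4 ± 9.82 to 43.2 ± 2.86 CPM (SD, n = 3, edgeR adjusted p = 0.000957). Late against early, 2 of the 5 rose and 3 fell in unstimulated cells, the third being PDCD1LG2, which encodes PD-L2. In stimulated cells 0 rose and 2 fell. Over all genes late against early, 20.9% rose and 19.8% fell in unstimulated cells, and 19.1% rose and 19.7% fell in stimulated cells.

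Costimulatory ligands of the TNF superfamily were tested for 5 genes. Early stimulation raised 2, TNFSF8 and TNFSF15, and lowered none, against 4.57% and 2.66% of all genes. TNFSF15, the ligand of death receptor DR3, was at 17.8 ± 2.72 CPM in Early CTL and 55.8 ± 7.92 in Early ACT (SD, n = 3), and at 44.5 ± 5.21 and 53.8 ± 5.73 CPM in the corresponding late groups. Its late minus early response was -1.38 ± 0.22 (SE, edgeR adjusted p = 0.000337). TNFSF8, the CD30 ligand, fell late against early by 0.62 in unstimulated and by 0.79 in stimulated cells on the log2 scale (edgeR adjusted p = 3.93e-05 and 1.76e-06). CD70, the ligand of CD27, rose late against early by 1.55 ± 0.30 in unstimulated and 1.07 ± 0.28 in stimulated cells (SE, edgeR adjusted p = 0.000255 and 0.00427). With TNFSF9, the 4-1BB ligand, that made 3 higher and 1 lower in unstimulated and 2 higher and 1 lower in stimulated cells, where 40.7% and 38.8% of all genes passed in either direction. The 2 higher were 1 without Early ACT 2 or any of the 3 Late ACT libraries, and the 1 lower was 2 in both states without Early ACT 1. On late stimulation TNFSF8 had a log2 fold change of 0.53 ± 0.10 (SE, edgeR adjusted p = 0.0691).

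Among SLAM, nectin and related ligands, 7 genes were tested. CD84, a self-binding SLAM receptor, was higher in each successive group mean, at 18.5 ± 1.81 CPM in Early CTL, 31.2 ± 1.44 in Early ACT, 60.4 ± 8.72 in Late CTL and 71.8 ± 5.28 in Late ACT (SD, n = 3). It passed on early stimulation and late against early in both states (edgeR adjusted p = 0.00159, 1.63e-09 and 3.56e-07). CD48, which like CD58 can bind CD2, was lower late in stimulated cells, by 0.56 on the log2 scale (edgeR adjusted p = 0.00245). Late against early, 3 rose and 2 fell in unstimulated cells, where 40.7% of all genes passed, and 2 rose and 3 fell in stimulated cells, where 38.8% passed. The 2 that fell were 1 without Early CTL 2, Early CTL 3 or Late CTL 2.

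Of 16 integrins and other leukocyte adhesion molecules, 10 fell and 2 rose late against early in unstimulated cells, and 10 fell and 3 rose in stimulated cells. Of all genes, 19.8% fell and 20.9% rose in unstimulated cells, and 19.7% fell and 19.1% rose with stimulation. The median log2 fold change of these 16 was -0.64 and -0.62, against 0.02 and 0.05 over all genes. PECAM1, an adhesion molecule of leukocytes and endothelium, was at 91.9 ± 2.94 CPM in Early CTL and 24.2 ± 2.21 in Late CTL (SD, n = 3). In stimulated cells PECAM1 fell by 1.51 on the log2 scale (edgeR adjusted p = 9.12e-09). ITGAM and ITGB2, the chains of the integrin Mac-1 that also binds ICAM1, were among those lower in both states, and were chosen after their values were seen. In unstimulated cells the number of these genes called higher was 4 without Early ACT 1. It was 1 without Early CTL 1, Early ACT 2 or 3, Late CTL 1 or 2, or any of the 3 Late ACT libraries. In stimulated cells it was 1 without Late ACT 2 or Late ACT 3.

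On early stimulation 2 of the 16 rose and 3 fell, against 4.57% and 2.66% of all genes. The fallen count was 0 without Early CTL 3 or Early ACT 2, 1 without Early CTL 1, Early CTL 2 or Early ACT 3, and 6 without Early ACT 1. The risen count was 0 without any 1 of Early CTL 1, 2 or 3, Early ACT 2 or 3, Late CTL 2 or Late ACT 2 or 3, and 1 without Late ACT 1.

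Of 17 genes of CD40 and NF-kB signalling, early stimulation raised 5 and lowered none, against 4.57% and 2.66% of all genes, while CD40 itself did not pass. High genes were called more often. Of tested genes with a mean of at least 1000 CPM, as TRAF1, TNFAIP3 and NFKBIA have, 36.7% rose on early stimulation. In that band 18.7% had a lower late than early response, against 1.23% of all genes. TRAF1, an adaptor of CD40 and an NF-kB target, was at 1818 ± 121 CPM in Early CTL, 3545 ± 357 in Early ACT, 3125 ± 366 in Late CTL and 3280 ± 362 in Late ACT (SD, n = 3). TNFAIP3, which encodes the NF-kB inhibitor A20, was at 1303 ± 15.9, 2456 ± 108, 1671 ± 55.0 and 1660 ± 52.4 CPM in the same order. NFKBIA, which encodes the inhibitor IkB-alpha, was at 5930 ± 244, 10291 ± 1507, 6814 ± 711 and 6830 ± 164 CPM. All 3 rose on early stimulation (edgeR adjusted p = 3.04e-06, 4.18e-07 and 2.69e-05), and the late minus early responses were -0.89 ± 0.17, -0.92 ± 0.14 and -0.79 ± 0.16 (SE, edgeR adjusted p = 0.00278, 0.000196 and 0.00571). The NFKBIA difference missed the threshold with library totals (edgeR adjusted p = 0.0647).

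The other 2 raised were NFKB1, also above 1000 CPM, and NFKB2, which lay at 100 to 500 CPM, where 11.4% of genes rose. The number raised was 3 without Early CTL 1 or Early CTL 3 and 8, with 1 lowered, without Early ACT 1, and with library totals 3 rose and 2 fell. The number with a lower late response, 3, was 6 without Early ACT 1. Late against early, 6 rose and 5 fell in unstimulated and 2 rose and 7 fell in stimulated cells, where 40.7% and 38.8% of all genes passed. The 2 that rose were 1 without any 1 of the Early CTL or Late ACT libraries, or without Late CTL 1 or 2. With upper-quartile factors 3 fell in unstimulated cells. RELB, the partner of NFKB2 in the noncanonical pathway, was lower late in both states, at 104 ± 7.06 CPM in Early CTL and 47.2 ± 5.74 in Late CTL (SD, n = 3), with log2 fold changes of -1.12 ± 0.14 and -1.07 ± 0.13 (SE, edgeR adjusted p = 4.96e-07 and 1.18e-06). TRAF3, an inhibitor of that pathway, was also lower late in both states. The log2 fold changes were -0.64 in unstimulated and -0.71 in stimulated cells (edgeR adjusted p = 0.000173 and 5.64e-05).

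MHC class II presentation supplies the antigen signal that costimulation accompanies. Of 11 genes of this list, 0 rose and 2 fell on early stimulation, where 7.23% of all genes passed. MAMU-DRA, MAMU-DRB1, MAMU-DPA1, MAMU-DPB1 and MAMU-DQA1, chains of MHC class II molecules, had no row with a usable name and were not tested. Late against early 0 rose and 6 fell in each state, where 40.7% of all genes passed in unstimulated and 38.8% in stimulated cells. The 6 in unstimulated cells included MARCHF1 and MARCHF8. CD74, MAMU-DMB and CIITA did not pass there (edgeR adjusted p = 0.0745, 0.152 and 0.421). With stimulation CD74 and MAMU-DMB were among the 6, and CIITA was not. In unstimulated cells 1 rose without Early CTL 2 or Late CTL 3. MARCHF1 and MARCHF8, ubiquitin ligases known to remove MHC class II and CD86 from the surface, were the 2 that fell on early stimulation. The early MARCHF1 call was lost without Early CTL 1, 2 or 3 or Early ACT 3, with adjusted p up to 0.121. MARCHF1 was at 52.7 ± 3.32 CPM in Early CTL, 36.2 ± 5.00 in Early ACT, 17.4 ± 1.78 in Late CTL and 17.4 ± 0.894 in Late ACT (SD, n = 3). Late against early it fell by 1.61 in unstimulated and by 1.07 in stimulated cells on the log2 scale (edgeR adjusted p = 1.32e-08 and 6.69e-06). IFI30, a lysosomal reductase of antigen processing, was lower late in both states, from 711 ± 106 to 376 ± 12.6 CPM in stimulated cells (SD, n = 3, edgeR adjusted p = 2.84e-06). Of the counter-receptors on T cells, 2 of 8 genes could be tested and none passed over all 12 libraries. Late against early in unstimulated cells, 1 passed as higher when any 1 of the 12 libraries was left out (the filter then kept 3 of the 8), as 1 did on early stimulation without Early ACT 1 and late in stimulated cells without Early ACT 3. Over all genes 34.2% to 48.9%, 12.4% and 36.9% passed in those fits. The group means of the 2 tested genes were only 1.03 to 3.37 CPM. Over all 12 libraries, among genes that passed the filter, 20.9% of those at 1 to 5 CPM and 65.1% of those under 1 CPM were higher late in unstimulated cells. The filter selects among low genes, so these shares do not describe all of them.

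**Figure D5:**
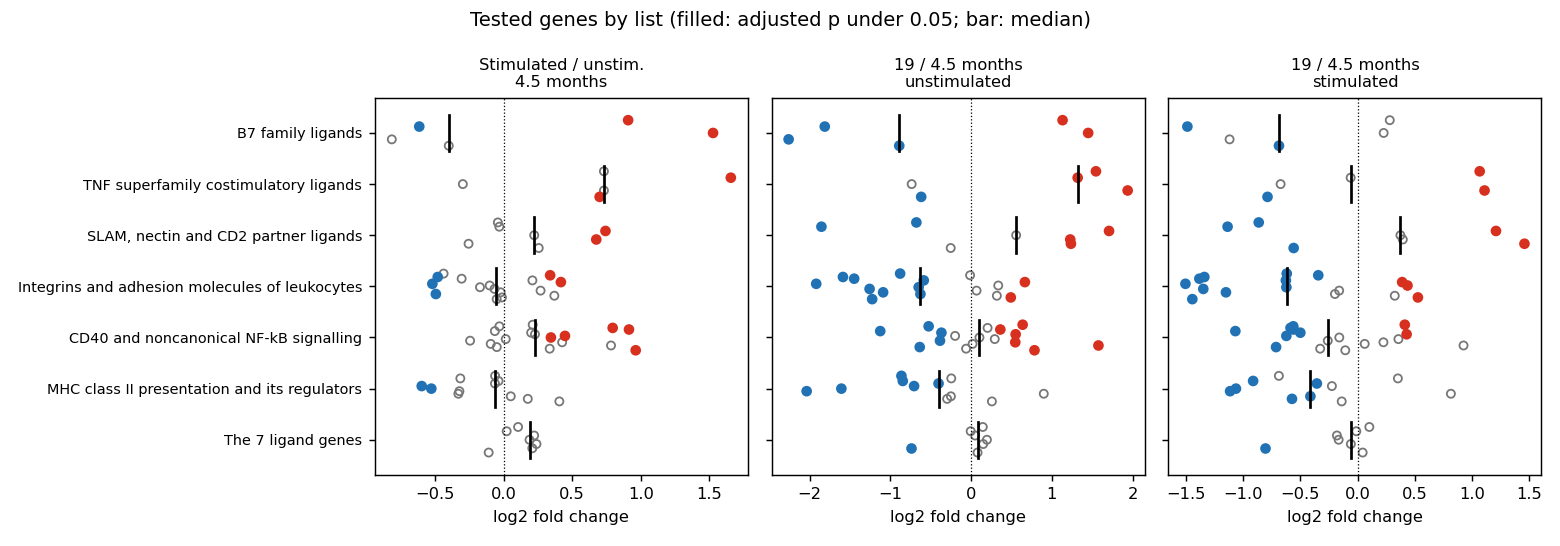
Log2 fold changes of the tested genes of 6 lists and of the 7 ligand genes, for early stimulation and for late against early in each state, one point per gene, filled where edgeR's adjusted p was under 0.05 and with a bar at the median. CD80 is the filled point among the 7 genes late against early, and 10 of 16 adhesion genes are filled and lower in each late comparison.

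The course of CD80 over the 4 groups differed from that of the other 6 genes. Likeness was measured as the root mean square difference between the 4 centred group means of log2 CPM. CD80 lay 0.351 to 0.445 from each of the others, which lay 0.0529 to 0.128 from each other. Among 5773 genes with a symbol and at least 10 CPM, the closest to CD80 were CDK5RAP3 (0.0195), GAB2 (0.0198) and WHRN (0.0286). Those closest to CD83 were SEC23B (0.0118), ZNF410 (0.0193) and SLC25A3 (0.0301). CD86 was closest to DDX56 (0.00648), SAMSN1 (0.0106) and C1H1orf198 (0.0146), and ICAM1 to BECN1 (0.00809), SRPRA (0.00881) and RPS23 (0.0115). ICOSLG was closest to EIF3B (0.0109), DYNC1LI2 (0.011) and TGOLN2 (0.0125), and CD58 to ACTR8 (0.00709), PDHX (0.00752) and HNRNPH1 (0.00817). CD40 was closest to BRAP (0.0137), ATPAF1 (0.0166) and ZNF143 (0.0169). The group means of the 6 genes other than CD80 spanned only 0.03 to 0.22 on the log2 scale, against 0.94 for CD80, so a close distance there pairs genes that varied little.

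Markers of other cell types that carry these ligands were read beside the CD80 result. The summed level of 9 B cell markers was 11.2 to 15 CPM per library early and 9.80 to 14.8 CPM late. The sum of 13 dendritic cell markers was 149 to 205 CPM early and 150 to 170 CPM late. Most of it was CD1C, at 61.3 CPM in Early CTL and 47.5 in Late CTL, and CCR7, at 67.8 and 73.2 CPM. CLEC9A, a marker of cross-presenting dendritic cells, was at 0 in every early library. It averaged only 0.0944 CPM in Late CTL and 0.606 in Late ACT, from 16 counts over all libraries. Of the 637 genes with a mean under 1 CPM that passed the filter on low counts, 65.1% were higher late in unstimulated cells. That filter selects among low genes, so the share does not describe all of them. The T cell sum was 257 to 394 CPM early and 319 to 362 CPM late, nearly all of it IL7R, while CD3E stayed at or under 0.646 CPM. Unlike these sums, that of 12 CD14 monocyte and macrophage markers did not overlap between the times, at 10757 to 11992 CPM early and 5958 to 6932 CPM late. The sum of 8 neutrophil markers was 661 to 774 CPM early and 328 to 417 CPM late, and that of 6 platelet and megakaryocyte markers was 451 to 631 CPM early and 352 to 417 CPM late, again without overlap. Most of the neutrophil sum was CSF3R, at 534 CPM in Early CTL and 308 in Late CTL. Nearly all of the platelet sum was TUBB1, at 453 and 353 CPM. Low markers of these lists went both ways, with CXCR2 at 6.06 and 3.70, MMP8 at 0.605 and 2.35 and PPBP at 1.05 and 1.79 CPM. The sums thus do not measure the share of such cells. CD14 and CD163 were lower late as well, by 0.53 and 1.03 on the log2 scale in unstimulated cells (edgeR adjusted p = 0.00203 and 9.04e-08). These sums, CD14 and CD163 moved in the same direction as CD80, the adhesion list and the genes called in the MHC class II list. Their part in those results was not tested.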

How the data were processed

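Total RNA of 12 libraries was made into libraries with SMART-Seq V4 and Nextera XT, kits that keep no strand information, per the labels' protocols. The authors' deposited gene table holds raw read counts per gene and library. Per the submitters' processing notes the build is Mmul_8.0.1 and bcl2fastq was used, while aligner and counter were not given in the sources used here. Late and early libraries are compared in 2 further tables by the authors. Per the file headers they hold a log2 fold change, a mean normalized count (a signal over the libraries compared), a standard error and a test score (the log2 fold change over that error), and each p-value with its adjusted value. These tables list genes with an adjusted p under 0.05.

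Of the 32386 genes, 16524 had a usable name, from the row, the Ensembl macaque name table or the authors' tables. Counts were tested with edgeR 4.0.16 in R 4.3.3 (robust quasi-likelihood F test, TMM factors from 0.879 to 1.1, filterByExpr by group, a coefficient per group over all 12 libraries). Benjamini-Hochberg adjustment ran over the 11826 genes that passed the filter, and a gene was called at an adjusted p under 0.05. Standard errors (SE) come from dividing the size of the log2 fold change by the root of the F statistic. Levels are CPM on the TMM-scaled library totals. DESeq2 1.42.0 and other scalings, filters, left-out libraries and a replicate block were alternatives. The fits were tested on simulated data.

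The 7 genes and the gene lists were chosen with earlier results of these data known. All 7 genes are named throughout. Of each list the text names up to 3 genes per comparison with the largest change among those called with at least 5 CPM in a compared group. Other list genes were named after their values were seen, to complete small counts, and some genes that the rule picks are not reported here. TET2, CD14, CD163 and the CD16 gene check the labels, and TNF was chosen after the data were seen to check the stimulation. The 3 most like genes of each ligand gene had a mean of at least 10 CPM. No 2 libraries of a group agreed within sampling noise. Reads without molecular identifiers are not independent molecules, so counting intervals cover counting error only. Counts without strand cannot separate a gene from an antisense partner. Transcript lengths were not used, so levels are not compared between genes.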

Additional observations from a re-analysis of the deposited data

How the results depend on the processing

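Each log2 fold change of the 7 genes was recomputed under 20 alternatives (19 for the difference of responses). Of 693 values, 681 kept their side of the threshold, with no called value turned in sign, 11 newly passed and 1 no longer passed. The last was CD80 late against early in unstimulated cells without Early CTL 2. Library totals without factors, and the list counts under other settings, were added after seeing the data.

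The number of the 7 genes called on early stimulation ran from 0 to 2 when single libraries were left out, with 2 (CD83 and CD86) without Early ACT 1, where 12.4% of all genes passed. Late against early in unstimulated cells it was 2 (CD80 and CD83) with upper-quartile factors, DESeq2 or only the groups compared, where 41.3%, 41% and 44.1% of all genes passed. It ran from 0 to 2 when single libraries were left out, where 34.2% to 48.9% of all genes passed. In stimulated cells it ran from 1 to 3, with 3 (CD80, CD83 and CD86) without Early ACT 1, where 37% of all genes passed. For the difference of responses it was 1 (CD83) with DESeq2, where 3.78% of all genes passed. It ran from 0 to 2 when single libraries were left out, with 2 (CD83 and CD86) without Early ACT 1, where 4.35% of all genes passed.

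Same-numbered libraries of different groups had correlated deviations between -0.0855 and 0.0968, so the numbers were not taken as pairs. With the replicate block the counts of the 7 genes called were 0 and 0 for stimulation, 1 and 1 late against early and 0 for the difference, and the counts over all genes were 727, 0, 4596, 4354 and 114.

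Over all genes, the 855 early stimulation calls were 503 with only the groups compared, 2413 with library totals and 464 to 1554 with single libraries left out. The 167 calls of the difference were 291 with DESeq2 and 95 to 546 with single libraries left out. The 0 late stimulation calls were 11 with DESeq2 and 29 without Early ACT 1. Higher calls late against early made up 51.3% in unstimulated and 49.3% in stimulated cells with TMM, and 63.3% and 61% with upper-quartile factors. With library totals the stimulated share was 65.2%, and the share for the difference was 61.4% against 13.2%. The cause of these shifts was not tested. Depth limits CD40 most, at 8 to 52 counts per library.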
